A study of Mus musculus with 9 samples.

Results

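Collagen is made in several steps, and the 10 genes described here encode proteins that fold new procollagen, modify its prolines and lysines, cross-link the secreted fibers and take collagen back up into cells. They are the peptidyl-prolyl isomerases Fkbp14 and Fkbp10, the chaperone Serpinh1, the lysyl hydroxylases Plod1 and Plod2, the prolyl 4-hydroxylase subunits P4ha1 and P4ha2, the prolyl 3-hydroxylation partner Crtap, the lysyl oxidase Lox and the collagen receptor Mrc2. The genes were chosen by name from a table of 55367 genes, with their difference between p53-driven and Myc-knockin tumors already known. Their values in that comparison are therefore a description and carry no test. All 10 were found in the table, and all 10 were among the 15365 genes with enough reads to be fitted.

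RNA-Seq was performed on whole osteosarcoma tumors that arose in genetically engineered mice. The 4 p53-driven tumors carried the genotype Col2.3-Cre/TrpP53fl/+, in which an osteoblast promoter fragment drives Cre and 1 allele of Trp53 is floxed. The 5 Myc-knockin tumors carried Cre-Lox-Stop-Lox, the allele (LSL)-c-MycT58A and p53fl/+, in which Cre also switches on a stabilized Myc allele, so that the floxed Trp53 allele was shared by all 9 tumors. The labels give no age, sex or treatment, and beyond a number for each sample nothing states how the tumors relate to single mice.

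Newly made procollagen chains enter the endoplasmic reticulum, where prolyl 4-hydroxylases modify prolines so that the triple helix is stable at body temperature. Lysyl hydroxylases prepare lysines for sugar addition and for later cross-links, isomerases speed the turning of proline bonds, and Serpinh1, also called HSP47, holds the folded helix until it leaves for the Golgi. Outside the cell Lox oxidizes lysines to start the cross-links, and Mrc2, also called Endo180, internalizes collagen for breakdown in lysosomes. Osteoblasts depend on these steps because bone matrix is mostly collagen I, and inherited loss of Crtap, Serpinh1, Fkbp10 or Plod2 function causes brittle bones. Several of the hydroxylase genes and Lox are known to be induced by hypoxia through HIF.

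Because of that background, the promoters were read for the core of the hypoxia response element, ACGTG. RefSeq promoter sequences of GRCm38.p6, each running from 250 bases before to 50 bases after a gene's start, were held for 6 of the 10 genes, namely Fkbp14 (with 2 starts), Serpinh1, Plod1, P4ha1, P4ha2 and Crtap. Fkbp10, Plod2, Lox and Mrc2 had no entry. The letters ACGTG occurred on either strand in 4 of these 7 windows, each in a different gene, and in 19.6% of all 32851 windows in the same table. Those 4 sequences are shown because they hold the motif, written 5′ to 3′ in the direction of the gene with ACGTG, or CACGT where it lies on the opposite strand, in capitals.
Fkbp14 (chr6:54593125-54593424, minus strand): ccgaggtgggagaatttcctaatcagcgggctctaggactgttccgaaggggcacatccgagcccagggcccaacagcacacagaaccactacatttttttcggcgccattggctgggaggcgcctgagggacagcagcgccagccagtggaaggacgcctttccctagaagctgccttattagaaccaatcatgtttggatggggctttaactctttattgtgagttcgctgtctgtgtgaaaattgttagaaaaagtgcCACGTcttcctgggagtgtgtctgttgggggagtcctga
Serpinh1 (chr7:99353190-99353489, minus strand): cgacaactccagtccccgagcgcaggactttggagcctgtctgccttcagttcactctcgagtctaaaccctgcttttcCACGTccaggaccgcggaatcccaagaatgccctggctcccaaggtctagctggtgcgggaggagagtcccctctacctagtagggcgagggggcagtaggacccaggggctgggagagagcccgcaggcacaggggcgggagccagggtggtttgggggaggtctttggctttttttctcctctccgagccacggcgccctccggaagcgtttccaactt
P4ha1 (chr10:59323046-59323345, plus strand): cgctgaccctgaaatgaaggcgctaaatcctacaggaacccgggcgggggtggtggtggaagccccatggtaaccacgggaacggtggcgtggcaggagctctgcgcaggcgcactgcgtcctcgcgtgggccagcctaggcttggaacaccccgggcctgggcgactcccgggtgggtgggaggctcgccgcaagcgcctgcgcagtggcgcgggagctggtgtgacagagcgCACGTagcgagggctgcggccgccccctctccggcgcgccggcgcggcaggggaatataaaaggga
P4ha2 (chr11:54100674-54100973, plus strand): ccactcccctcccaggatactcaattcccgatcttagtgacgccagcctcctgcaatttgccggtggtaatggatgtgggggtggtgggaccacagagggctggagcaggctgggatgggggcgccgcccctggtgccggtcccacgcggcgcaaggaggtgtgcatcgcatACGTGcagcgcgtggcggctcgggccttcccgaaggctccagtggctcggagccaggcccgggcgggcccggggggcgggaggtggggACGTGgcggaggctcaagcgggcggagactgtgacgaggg
The leftmost base of the motif lay at position 12 after the start in Fkbp14, at -171 in Serpinh1, at -16 in P4ha1, and at -78 and 11 in P4ha2. Position 1 is the first base of the transcript. In Fkbp14 and in P4ha2 the start of this window lies inside the annotated gene, not at its 5′ end. The other Fkbp14 start, Plod1 and Crtap had no ACGTG in their windows. The E-box CACGTG, which Myc and its partners are known to bind and which contains ACGTG, was in none of the 7 windows and in 7.15% of all windows. The GC box GGGCGG was found in 5 of the 7 windows and in 35.7% of all, and CCAAT in 1 of the 7 (Fkbp14) and in 37.4%. GC content of the member windows ran from 48.7% in the Fkbp14 window without the motif to 70.3% in P4ha1 and P4ha2, where the median of all promoters was 52.7%. A match is a run of letters and was not tested as a binding site.

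Total counts ranged from 2716322 to 17073285 per tumor, and 3 counts corresponded to between 0.114 and 2.39 TMM-normalized CPM (counts scaled to the size of the library), the unit of the levels below. Myc was at 43.5 to 67.1 CPM in the p53-driven tumors and at 144 to 1045 CPM in the Myc-knockin tumors, without overlap between the groups as assigned. Trp53 was at 8.29 to 13.5 and 3.19 to 37.7 CPM. Some libraries stood apart. Satellite-repeat genes held 44.3% of the counts in F187, 67.9% in M351, 23.2% in M408 and 81.0% in M9, and at most 0.0242% in the other 5. Reads spread over the genome were estimated from olfactory and other receptor genes at 5.49% of the remaining counts in F187, 16.8% in M351 and 24.1% in M9, and their largest expected share of any of the 10 genes' counts was 26.7%, for P4ha2 in M9. Rn7sk, which lacks a poly(A) tail, was at 3.47 and 6.35 CPM in M624 and M664 and at 6545 to 10667 CPM in the other 7. Xist was at 459 to 626 CPM in F325, F331, F368 and M351 and at most 17.9 CPM in the rest, which is 3 of 4 p53-driven and 1 of 5 Myc-knockin tumors. Fits were run without the satellite-rich libraries, without M624 and M664, without single tumors, and with the spread reads subtracted. No fit took up the Xist difference, and the part of these features in the results was otherwise not tested.

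In the Myc-knockin tumors the mean level of every one of the 10 genes was lower than in the p53-driven tumors, from 1.55-fold lower for Crtap to 6.35-fold lower for Fkbp14. The fitted log2 fold changes (Myc-knockin minus p53-driven, edgeR) ran from -2.68 to -0.62 with a median of -1.41, where the median of all 15365 genes was 0.14. With the threshold set at a fold above 1.5 and an adjusted p below 0.05, Fkbp14, Mrc2 and P4ha1 were called lower and none was called higher, which is 3 of 10 where 3.00% of all tested genes were called lower and 2.26% higher. For 5 of the 10 genes the groups were fully separate in CPM (Fkbp14, Serpinh1, P4ha1, Lox and Mrc2), where 7.54% of all tested genes were lower without overlap and 5.41% higher. Nothing is read from these shares, since the genes were chosen with the difference in view. In tissue RNA, fewer collagen-making cells and less RNA per cell cannot be told apart.

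**Figure D1:**
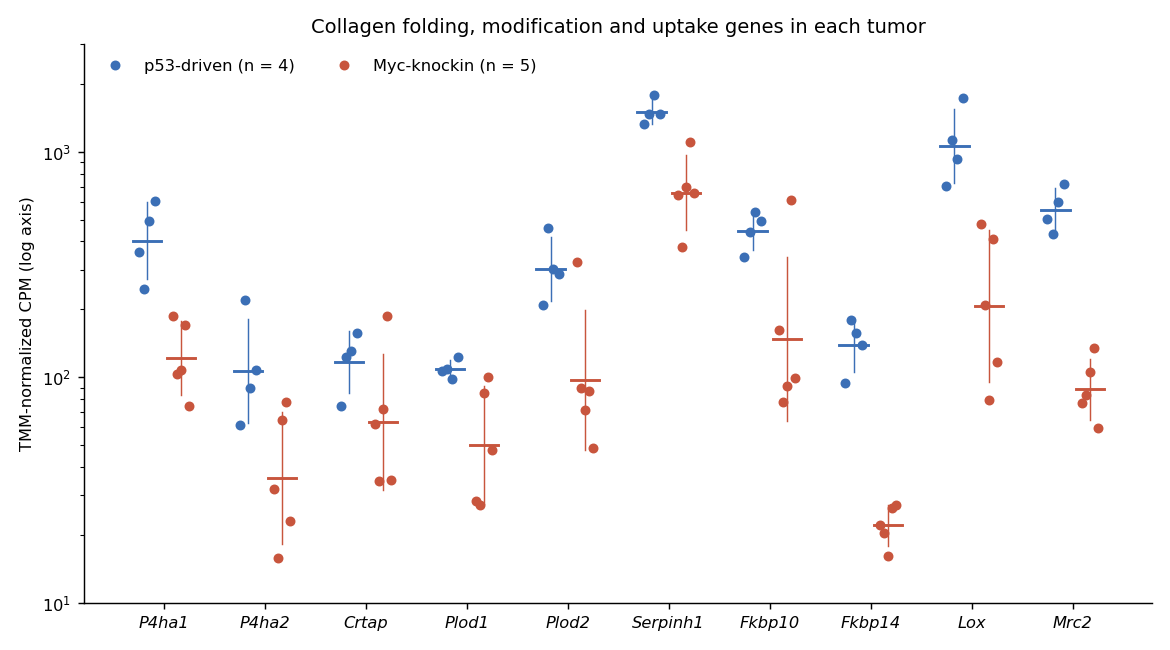
Level of each of the 10 genes in every tumor, in TMM-normalized CPM on a log axis, with 1 point per tumor, the geometric mean as a horizontal line and 1 SD of log2 CPM on either side as a vertical line. Fkbp14, Serpinh1, P4ha1, Lox and Mrc2 have all 5 Myc-knockin points below all 4 p53-driven points, and the highest Myc-knockin points of Fkbp10 (608 CPM) and Crtap (186.9 CPM) lie above the p53-driven range.

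The prolyl 4-hydroxylase tetramer pairs a catalytic subunit, encoded by P4ha1 or P4ha2, with P4hb. Among p53-driven tumors P4ha1 was at 359 CPM in F187, 246 in F325, 492 in F331 and 607 in F368, and among Myc-knockin tumors at 186.5 CPM in M351, 104 in M408, 74.9 in M9, 108 in M624 and 170 in M664, the order of tumors used throughout. Each Myc-knockin value was below the lowest p53-driven value, and the fitted log2 fold change was -1.73 (SE 0.38). P4ha2 was at 61.6, 219, 89.2 and 108 CPM against 32.0, 15.8, 23.1, 64.5 and 77.4 CPM, with a log2 fold change of -1.47 (SE 0.51). Here the groups overlapped, with F187 below M624 and M664. P4ha1 made up 81.7% ± 13.3 (SD, n = 4) of the 3 catalytic subunits' summed level per kilobase of exon in the p53-driven tumors and 79.5% ± 6.89 (SD, n = 5) in the Myc-knockin tumors, so the difference in its share was smaller than the spread. F325 had the lowest P4ha1 share at 61.8%, and it was also the p53-driven tumor highest for P4ha2.

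Crtap, the scaffold that works with the enzyme P3h1 and the isomerase Ppib to hydroxylate single prolines at their 3 position, was at 74.7, 123, 130 and 157 CPM in the p53-driven tumors and at 62.2, 34.6, 35.1, 72.7 and 186.9 CPM in the Myc-knockin tumors. M664 was above all p53-driven tumors and the other 4 Myc-knockin tumors were below all of them. The log2 fold change was -0.62 (SE 0.49), the smallest of the 10, with a 95% interval from -1.69 to 0.45, and without M664 it was -1.22 (SE 0.34). Its partner P3h1 fell from 302 ± 98.8 (SD, n = 4) to 92.4 ± 45.0 CPM (SD, n = 5), a log2 fold change of -1.70 (SE 0.39, adjusted p = 0.037 by edgeR's quasi-likelihood test). Ppib was at 77.0 ± 14.7 and 77.4 ± 28.7 CPM, a log2 fold change of 0.01 (SE 0.31, adjusted p = 0.985 by edgeR) whose sign turned with the processing.

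Plod1 hydroxylates lysines in the helical part of collagen and Plod2 those in its end telopeptides. Plod1 was at 106, 109, 97.8 and 123 CPM in the p53-driven tumors, the narrowest spread of the 10 genes there (0.14 as the SD of log2 CPM), and at 28.3, 27.1, 47.8, 85.0 and 100 CPM in the Myc-knockin tumors. M664 lay within the p53-driven range, M624 below it, and the other 3 lower still. Its log2 fold change was -0.91 (SE 0.40). Plod2 was at 209, 460, 303 and 287 CPM against 324, 89.6, 48.6, 71.7 and 87.4 CPM, with a log2 fold change of -1.34 (SE 0.53). M351 alone lay within the p53-driven range, without M351 the log2 fold change was -2.07, and Plod2 was 84.4% of the summed Plod1, Plod2 and Plod3 level per kilobase in that tumor and 27.8% to 52.7% in the other 4 Myc-knockin tumors. In the p53-driven tumors Plod2 took 61.0% ± 5.37 (SD, n = 4) of that sum, against 47.3% ± 22.7 (SD, n = 5) in the Myc-knockin tumors.

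Serpinh1, the chaperone that binds only folded procollagen, was the most abundant of the 10 genes in both groups per kilobase of exon. It was at 1320, 1469, 1791 and 1465 CPM in the p53-driven tumors and at 644, 378, 656, 699 and 1102 CPM in the Myc-knockin tumors. The groups did not overlap, although M664 came within 218 CPM of F187, and the log2 fold change was -1.12 (SE 0.38). Fkbp10, or FKBP65, an isomerase and chaperone of collagen I, was at 340, 439, 541 and 491 CPM against 161, 78.0, 99.6, 91.5 and 608 CPM. M664 held more Fkbp10 than any p53-driven tumor, whereas the other 4 Myc-knockin tumors were at 161 CPM or less. The log2 fold change of Fkbp10 was -1.12 (SE 0.60) over 9 tumors and -2.04 (SE 0.33) without M664.

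Fkbp14, or FKBP22, an isomerase of the endoplasmic reticulum with a preference for collagen III and some other types, was at 94.8, 179, 156 and 139 CPM in the p53-driven tumors. In the Myc-knockin tumors it was at 22.2, 20.3, 27.1, 16.1 and 26.5 CPM, the narrowest spread of the 10 genes in that group (0.30 as the SD of log2 CPM). The lowest p53-driven tumor was 3.50-fold above the highest Myc-knockin tumor, and the log2 fold change was -2.68 (SE 0.28, 95% interval -3.29 to -2.06). Fkbp14 was the only one of the 10 genes past the threshold under each of the 22 alternatives, where its log2 fold change ran from -2.94 to -2.51. Some alternatives only loosened the threshold on the same fit, and Fkbp14 was chosen with its difference known. In M664, where Fkbp10 was highest, Fkbp14 was at 26.5 CPM, so the pair of isomerases diverged in that tumor.

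Lox, which oxidizes lysines in secreted collagen and elastin, was at 704, 1121, 927 and 1730 CPM in the p53-driven tumors and at 479, 209, 117, 79.6 and 409 CPM in the Myc-knockin tumors. No Myc-knockin tumor reached the lowest p53-driven value, and the log2 fold change was -2.12 (SE 0.56). Lox was 80.5% ± 7.21 (SD, n = 4) of the summed level per kilobase of Lox and Loxl1 to Loxl4 in the p53-driven tumors and 60.4% ± 22.1 (SD, n = 5) in the Myc-knockin tumors, where M624 had 25.4% and M351 84.5%. Mrc2, the uptake receptor, was at 501, 431, 596 and 718 CPM against 76.9, 83.1, 59.8, 106 and 135 CPM. Its lowest p53-driven value was 3.20-fold above its highest Myc-knockin value, and its log2 fold change was -2.60 (SE 0.33, 95% interval -3.33 to -1.88).

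**Figure D2:**
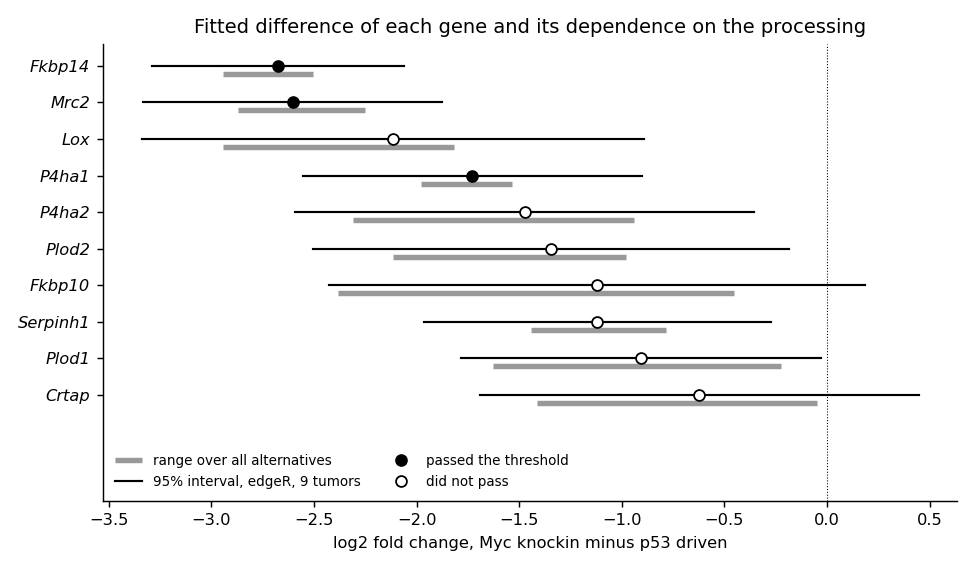
Log2 fold change (Myc-knockin minus p53-driven) of each of the 10 genes with its 95% interval from edgeR on 9 tumors, filled where the gene passed the threshold. The gray bar under each point is the range over the 22 alternatives, and it stays below 0 for all 10 genes, coming nearest to 0 for Crtap at -0.05 and reaching no higher than -2.51 for Fkbp14.

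Per kilobase of exon, the p53-driven tumors held Serpinh1 at 619 ± 81.4 CPM per kb (SD, n = 4), Lox at 235 ± 92.2, Fkbp10 at 154 ± 29.3, P4ha1 at 104 ± 38.2 and Mrc2 at 84.1 ± 18.6. Crtap followed at 68.5 ± 19.3 CPM per kb, Plod2 at 58.4 ± 19.6, Fkbp14 at 34.3 ± 8.60, P4ha2 at 19.2 ± 11.1 and Plod1 at 16.1 ± 1.54. Except for the step from Serpinh1 to Lox, neighbors in this order had overlapping ranges of mean ± SD. In the Myc-knockin tumors Serpinh1 was again first at 285 ± 106 CPM per kb (SD, n = 5), followed by Fkbp10 at 70.8 ± 77.1 and Lox at 54.1 ± 37.1. Mrc2 was there at 13.8 ± 4.34 CPM per kb, below Crtap at 44.2 ± 35.5 and Plod2 at 23.1 ± 21.0, and Fkbp14 came last at 5.41 ± 1.09.

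Tumors of a group differed in most of the genes together. F187 was below the p53-driven mean for 10 of 10 genes, and M664 was above the Myc-knockin mean for 9 of 10, with a median deviation of 0.86 on the log2 scale. M408 and M9 were each above the Myc-knockin mean for 1 of 10. With the group means removed, the 45 pairs of genes had a median Pearson r of 0.45 over 9 tumors (range -0.45 to 0.89), with 38 pairs above 0. Without M664 the median was 0.29. All genes of a tumor share its library and normalization, and these correlations are a description.

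**Figure D3:**
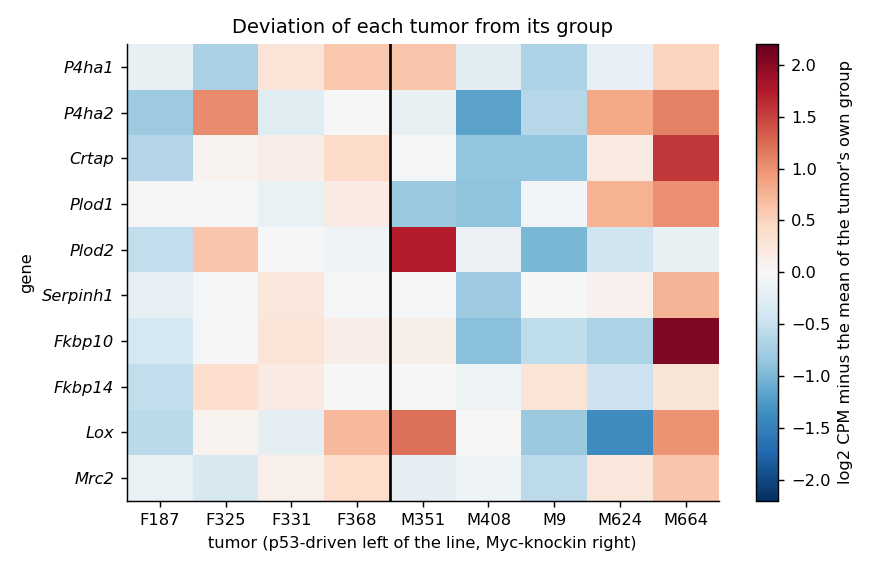
Log2 CPM of each of the 10 genes (rows) in each tumor (columns) minus the mean of that tumor's own group, with red above and blue below the mean. F187 is below the p53-driven mean in every row, M664 is above the Myc-knockin mean in 9 rows, and the Plod2 value of M351 and the Fkbp10 value of M664 stand out.

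The substrate of these proteins was compared in the same tumors. Col1a1, which encodes the main chain of collagen I, was at 67771 ± 21234 CPM (SD, n = 4) and 8492 ± 7158 CPM (SD, n = 5), a log2 fold change of -2.996 (SE 0.89, adjusted p = 0.068 by edgeR). Col1a2, its partner chain, was at 45533 ± 19309 and 6226 ± 5826 CPM, a log2 fold change of -2.87 (SE 0.92, adjusted p = 0.082 by edgeR). Neither passed the threshold, although the groups did not overlap for either. Col3a1 was at 868 ± 370 and 486 ± 248 CPM, a log2 fold change of -0.84 (SE 0.45, adjusted p = 0.260 by edgeR). Of 11 fibrillar collagen genes 2 fell and none rose, where 3.00% of all tested genes fell and 2.26% rose. The median log2 fold change of the 11 was -2.24. The 2 that fell were Col5a1, with a log2 fold change of -2.24 (SE 0.45, adjusted p = 0.027 by edgeR), and Col11a1, with -3.09 (SE 0.45, adjusted p = 0.016 by edgeR). Neither call held without F325, F331 or F368, where the adjusted p by edgeR was 0.081, 0.093 and 0.103 for Col5a1 and 0.063, 0.064 and 0.062 for Col11a1.

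Per kilobase, Col1a1 and Col1a2 summed to 7691, 16339, 14660 and 17273 CPM per kb in the p53-driven tumors and to 1411, 778, 2016, 413 and 4357 CPM per kb in the Myc-knockin tumors. The 10 genes summed to 1095 to 1595 CPM per kb and 310 to 961 CPM per kb. Serpinh1 per 1000 units of that collagen I sum was 70.3, 36.8, 50.01 and 34.7 in the p53-driven tumors and 186.8, 199, 133, 692 and 104 in the Myc-knockin tumors. The ratio was higher in every Myc-knockin tumor than in every p53-driven tumor, the reverse of the order of Serpinh1 itself. For Fkbp14 the same ratio was 1.94 to 2.97 against 1.46 to 9.40, for Lox 13.2 to 21.0 against 12.2 to 71.1, and for Mrc2 3.95 to 9.76 against 4.44 to 38.4, with overlap between the groups in all 3.

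**Figure D4:**
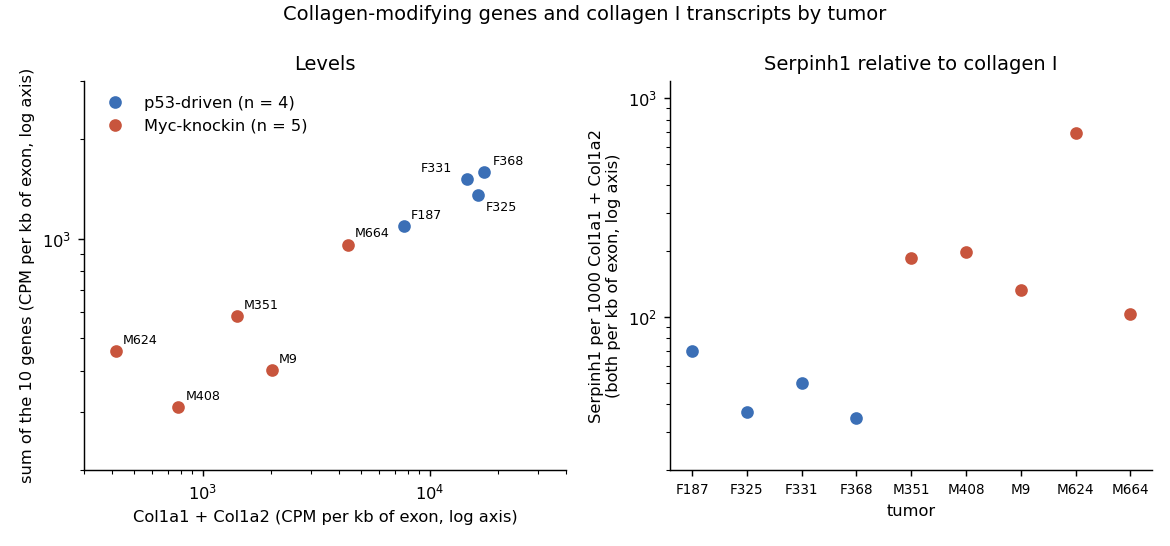
Left, the sum of the 10 genes against Col1a1 plus Col1a2 in each tumor, both in CPM per kilobase of exon on log axes. Right, Serpinh1 per 1000 units of Col1a1 plus Col1a2 in each tumor on a log axis, where the 4 p53-driven tumors lie at 34.7 to 70.3 and the 5 Myc-knockin tumors at 104 to 692.

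The rest of the pathway was taken from a list of 50 genes chosen by function, with earlier results of these data known. Of these, 49 were tested (Tll2 was not). In the Myc-knockin tumors 11 of the 49 fell and none rose, where 3.00% of all tested genes fell and 2.26% rose. The other 38 did not pass the threshold, and of the 49 log2 fold changes 32 were below 0 and 17 above. Their median was -0.56, where that of all genes was 0.14. It is not ranked against the -1.41 of the 10 genes, which were chosen with their difference known. Leaving out F325, F331 or F368 left 0 pathway genes past the threshold, where 8, 6 and 5 genes passed in all. Leaving out F187 left 5 of the 11, where 335 genes passed in all. Without M351 the count was 6 and without M624 it was 7.

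In prolyl hydroxylation 1 of 7 genes fell, P3h1, described above. P4hb, the shared subunit of prolyl 4-hydroxylase, was at 1335 ± 199 and 623.9 ± 157 CPM without overlap, a log2 fold change of -1.10 (SE 0.34, adjusted p = 0.077 by edgeR). None of 4 genes of lysyl hydroxylation and glycosylation passed the threshold. Plod3, which also adds sugars, had a log2 fold change of -0.64 (SE 0.37) and the galactosyltransferase Colgalt1 one of 0.15 (SE 0.35), with adjusted p = 0.294 and 0.815 by edgeR. The signs of Colgalt1, Mia2 and Loxl2 turned in some alternatives.

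Of 11 chaperones and folding enzymes of the endoplasmic reticulum 3 fell, namely Fkbp7, Fkbp9 and Pdia4. Fkbp7 and Fkbp9 belong to the same isomerase family as Fkbp10 and Fkbp14, and Pdia4 is a disulfide isomerase. Fkbp7 went from 239 ± 66.6 CPM (SD, n = 4) to 43.8 ± 28.2 CPM (SD, n = 5), a log2 fold change of -2.47 (SE 0.48, adjusted p = 0.025 by edgeR). Fkbp9 had -1.74 (SE 0.36, adjusted p = 0.029 by edgeR) and Pdia4 -1.42 (SE 0.30, adjusted p = 0.029 by edgeR). Sparc, a collagen-binding matrix protein, was at 12266 ± 5823 and 2920 ± 1882 CPM, with a log2 fold change of -2.07 (SE 0.68, adjusted p = 0.089 by edgeR), and Pdia3 had -1.17 (SE 0.31, adjusted p = 0.050 by edgeR, just outside the threshold).

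Procollagen is too large for ordinary transport vesicles and leaves the endoplasmic reticulum through sites organized by Mia3, also called TANGO1. In this group 3 of 6 genes fell. Mia3 had a log2 fold change of -1.66 (SE 0.30, adjusted p = 0.022 by edgeR), the COPII coat gene Sec24d -1.72 (SE 0.28, adjusted p = 0.019 by edgeR), and Tfg, which organizes COPII exit sites, -0.93 (SE 0.24, adjusted p = 0.048 by edgeR). Sec23a, another coat gene, had -0.56 (SE 0.27, adjusted p = 0.216 by edgeR) and Mia2 0.03 (SE 0.31, adjusted p = 0.971 by edgeR).

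Among 7 tested genes of propeptide removal Adamts2, the protease that cuts the N-propeptide, fell from 326 ± 165 to 44.2 ± 26.7 CPM, a log2 fold change of -2.88 (SE 0.50, adjusted p = 0.022 by edgeR). Bmp1, which cuts the C-propeptide, had -1.59 (SE 0.66, adjusted p = 0.154 by edgeR), with M664 at 590 CPM, and its enhancer Pcolce had -1.21 (SE 0.52, adjusted p = 0.163 by edgeR). Of 4 other lysyl oxidases, Loxl3 fell from 69.1 ± 36.6 to 9.54 ± 4.8 CPM, a log2 fold change of -2.85 (SE 0.48, adjusted p = 0.020 by edgeR). Loxl4 had -1.11 (SE 0.89) and Loxl2 0.39 (SE 0.59), with adjusted p = 0.455 and 0.702 by edgeR.

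Of 10 other genes of collagen uptake and breakdown, Fap and Mmp14 fell. The stromal protease Fap went from 518 ± 153 to 67.7 ± 43.0 CPM, a log2 fold change of -2.95 (SE 0.64, adjusted p = 0.032 by edgeR), and the membrane collagenase Mmp14 from 936 ± 147 to 270 ± 146 CPM, a log2 fold change of -1.79 (SE 0.43, adjusted p = 0.041 by edgeR). The lysosomal protease Ctsb and the collagen-binding integrin subunit Itgb1 had -0.41 (SE 0.46) and -0.52 (SE 0.31), with adjusted p = 0.605 and 0.313 by edgeR.

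**Figure D5:**
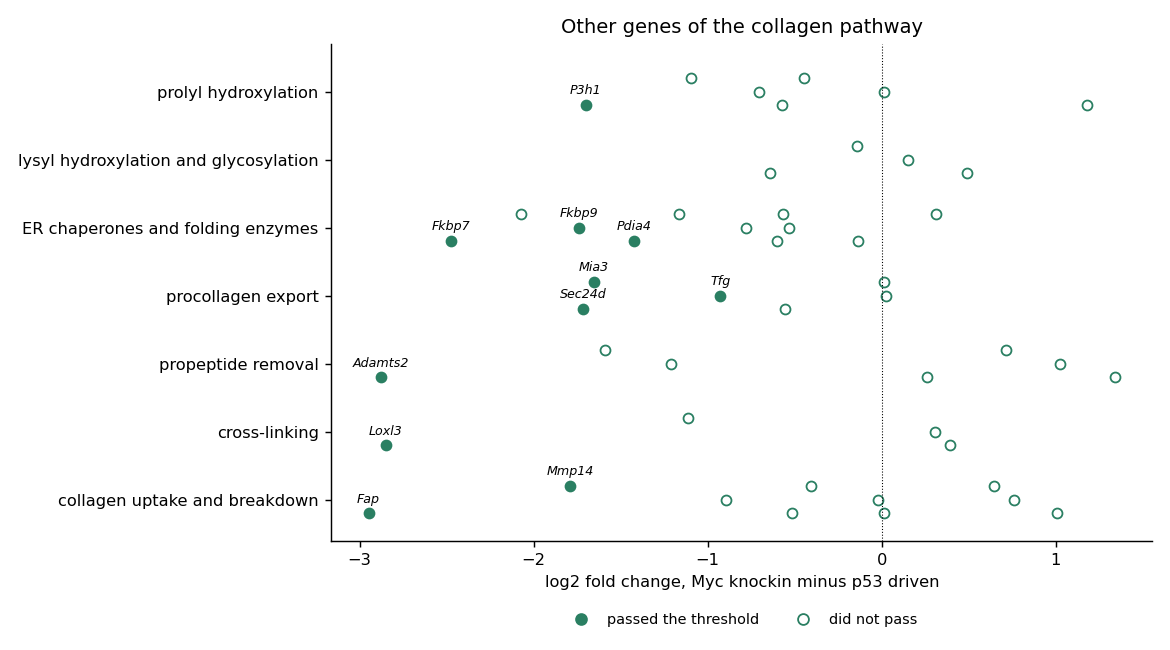
Log2 fold change (Myc-knockin minus p53-driven) of the 49 tested pathway genes outside the 10, grouped by step, with 1 point per gene, filled and named where the gene passed the threshold. All 11 filled points lie below 0, while open points fall on both sides.

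The hypoxia-induced genes were listed because several of the 10 genes are known HIF targets. Of 12 tested 1 rose and none fell, where 2.26% of all tested genes rose and 3.00% fell. The median log2 fold change of the 12 was 0.62, with 9 above 0. The gene that rose was Mxi1, a repressor of the Myc network, at 17.96 ± 3.19 and 51.3 ± 18.9 CPM (log2 fold change 1.52, SE 0.33, adjusted p = 0.031 by edgeR). It was called in 5 of the 9 fits that left out 1 tumor, and the adjusted p by edgeR was 0.077 without F187, 0.107 without F325, 0.093 without F331 and 0.138 without F368. Vegfa, the angiogenic growth factor, had -0.78 (SE 0.30, adjusted p = 0.131 by edgeR), Ndrg1 -0.35 (SE 0.29, adjusted p = 0.468 by edgeR), and Pdk1 0.64 (SE 0.32, adjusted p = 0.229 by edgeR).

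Markers of the cells that make and take up collagen were also compared. Of the 13 osteoblast markers 11 had a log2 fold change below 0 and 2 above, and of the 8 tested fibroblast markers 6 and 2. The 13 osteoblast markers summed to 3143 to 6560 CPM in the p53-driven tumors and 232 to 5121 CPM in the Myc-knockin tumors. Of these 13, 2 (Bglap and Bglap2) fell, where 3.00% of all tested genes did. Runx2 and Sp7, which define the lineage, were detected in all 9 tumors, with 9.18 CPM of Runx2 in the lowest tumor. The sum was lowest in M624 (232 CPM) and highest among Myc-knockin tumors in M664 (5121 CPM). The 9 fibroblast markers summed to 1042 to 2232 and 314 to 513 CPM. Of the 8 tested, 2 (Dcn and Lum) fell, beside the same 3.00% of all tested genes. None of these 4 calls held without F325, F331 or F368, where 8, 6 and 5 genes passed in all.

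Osteoclast markers summed to 2716 to 14151 CPM in the p53-driven tumors and 124 to 2570 CPM in the Myc-knockin tumors. Of these markers 6 of 8 were called lower, with a median log2 fold change of -4.01. Macrophage markers summed to 879 to 1532 and 279 to 690 CPM, with 3 of 8 called lower. Among all tested genes 3.00% were called lower. Endothelial markers (0 of 7 called) summed to 349 to 484 and 90.2 to 470 CPM, skeletal muscle markers (0 of 6) to 11.1 to 4740 and 2.67 to 1793 CPM, and chondrocyte markers (0 of 6) to 19.5 to 2668 and 72.6 to 180 CPM. Red cell markers summed to 3.55 to 14.2 and 7.17 to 783 CPM, and 0 of the 1 tested passed. At 0 in at least 1 tumor were Bglap, Bglap2 and Mepe of the osteoblast list, Clec3b, Col9a1, Matn1, Dcstamp, Tnnc2 and 5 of the 6 red cell markers. The part of these marker differences in the levels of the 10 genes was not tested.

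Genes whose log2 CPM followed the mean of the 10 genes most closely were sought among 9414 others with a mean of at least 10 CPM. The closest was 1600012H06Rik (Pearson r 0.98 over 9 tumors), followed by Serp1 (0.97), a protein of the endoplasmic reticulum translocon, Cog6 (0.96), a subunit of a Golgi tethering complex, Ostc (0.96), a part of the oligosaccharyltransferase, and the gelatinase Mmp2 (0.96). Serp1 was at 352 to 441 CPM in the p53-driven tumors and 120 to 187.1 CPM in the Myc-knockin tumors. An r of at least 0.9 was reached by 96 genes, or 1.02%, and because the 10 genes were chosen for a group difference, any gene with a like difference between groups scores high.

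The counts of calls among the 10 genes moved with the libraries and the method. DESeq2, run on all genes with its own size factors and filtering, called 6 of them lower, where 6.79% of the 15477 genes it gave an adjusted p were called lower. With limma-voom and quality weights, which give some libraries less weight, 8 were called lower, where 6.51% of all tested genes were. Without M624 and M664 there were 5 (Fkbp14, Fkbp10, Plod1, P4ha2 and Mrc2, with 2.81% of all genes called lower), and without the 4 libraries rich in satellite counts 4 (Fkbp14, Plod2, P4ha1 and Mrc2, with 12.1%). Leaving out F331 or F368 left only Fkbp14, with 0.0375% and 0.0292% of all genes called lower. Leaving out F187, F325 or M624 left Fkbp14 and Mrc2, with 1.22%, 0.0373% and 1.49%. There were 4 without M351 or M664, with 1.27% and 2.97%, and 3 without M408 or M9, with 2.78% and 4.34%. Not 1 of the 10 genes had a log2 fold change above 0 in any alternative, a direction fixed by how they were chosen.

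In the mm10 genome Fkbp14 (ENSMUSG00000038074) lies on the minus strand at chr6:54577604-54597308 and Fkbp10 (ENSMUSG00000001555) on the plus strand at chr11:100415697-100424824. Serpinh1 (ENSMUSG00000070436) is at chr7:99345376-99353239 on the minus strand, Plod1 (ENSMUSG00000019055) at chr4:147909753-147936767 on the minus strand, and Plod2 (ENSMUSG00000032374) at chr9:92542223-92608428 on the plus strand. P4ha1 (ENSMUSG00000019916) is at chr10:59323296-59373304, P4ha2 (ENSMUSG00000018906) at chr11:54100095-54131665 and Mrc2 (ENSMUSG00000020695) at chr11:105292643-105351139, all on the plus strand. Crtap (ENSMUSG00000032431) is at chr9:114375134-114390675 on the minus strand, and Lox (ENSMUSG00000024529) lies on chromosome 18. All are protein coding and were counted over their exons.

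Exons of 4 of the 10 genes overlap a gene on the opposite strand. The study's library kit was a stranded one, but the strand setting of the counting is not given in the sources used here. Fkbp14 shares 208 exon bases (5.01% of its exon length) with Plekha8, at 25.7 to 47.4 CPM in the p53-driven and 13.7 to 29.6 CPM in the Myc-knockin tumors. Fkbp10 shares 193 bases (6.58%) with Nt5c3b, at 12.2 to 19.4 and 10.4 to 40.3 CPM, and Plod2 shares 346 bases (6.42%) with Gm38391, at 1.90 to 3.55 and 1.26 to 9.23 CPM. The gene opposite Lox had no counts.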

How the data were processed

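By the study's methods, tumor RNA was enriched for poly(A) RNA, read in pairs, trimmed with Trim Galore, mapped with STAR to mm10 and counted per gene with featureCounts, and the authors deposited raw counts in 1 table of 55367 genes and 9 columns. The libraries differ in RNA without a poly(A) tail, as the Rn7sk levels show. The methods name a stranded library kit and a commit of Trim Galore. Versions of STAR and featureCounts and the strand setting of the counting are not given in the sources used here. The study's supporting data list 6 of the column names under a genotype, as cell lines made from the tumors. The letter M alone placed the other 3 (M9, M351 and M664). No source labels the columns themselves, so the genotypes of all 9 columns are inferred. The labels number the samples but the columns do not carry those numbers. The p-values set the difference between groups against the spread between these tumors.

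Counts were fitted with edgeR 4.0.16 (R 4.3.3) by glmQLFit and glmQLFTest, with TMM normalization, filterByExpr (minimum count 10) and Benjamini-Hochberg adjustment over 15365 genes. Calls required a fold above 1.5 and an adjusted p below 0.05, and rose or fell means called. Log2 CPM used a prior count of 2. Exon lengths came from GENCODE M21, which holds 55034 of the gene identifiers. Alternatives used DESeq2 1.42.0, limma 3.58.1, other normalizations, filters, thresholds and libraries. Total counts of 2716322 to 17073285 and 9 tumors limit the precision, and floors of 3 counts cover counting error only.

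The 10 genes and all lists were chosen with earlier results of these data known. Named are the 10 genes, the pathway genes that passed and the 2 most abundant of each step that did not, Col1a1, Col1a2, Col3a1 and called collagens, the 3 most abundant of the HIF list, and the 5 genes most like the 10. Marker lists are given by their sums, and Mxi1, the markers named and any other gene were chosen after their values were seen.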

Additional observations from a re-analysis of the deposited data

Results flagged for a closer look

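Among 96 sets of values checked (the named genes within each group of tumors), 5 held a tumor far from the others of its group, where chance sets apart about 1 in 20. In the Myc-knockin group, M664 held 608 CPM of Fkbp10 with the next tumor at 161 CPM, 186.9 CPM of Crtap with the next at 72.7 CPM, and 590 CPM of Bmp1 with the next at 155 CPM. M351 held 324 CPM of Plod2 with the next at 89.6 CPM. Among the p53-driven tumors, F331 held 22.7 CPM of Mxi1 with the next at 16.5 CPM. M664 also had the highest collagen I and osteoblast marker sums of its group, and M351 is one of the libraries rich in satellite counts. The part of these features in the values was not tested.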

How the results depend on the processing

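Under 22 alternatives the direction of the 10 genes held throughout, while the counts of calls moved with the method and the libraries. Against 3 of the 10, 11 pathway genes and 809 genes in all, DESeq2 with its own filter called 6 of the 10 and 2377 genes, an adjusted p under 0.1 gave 6 and 2248, and limma-voom with quality weights gave 8, 20 pathway genes and 1663. Library size alone gave 1, 3 and 136, all genes with at least 1 count gave 6 pathway genes and 494 in all, and at least 10 counts in every tumor gave 1316. The 6 named columns gave 6 of the 10, where 1171 of all 16759 tested genes were called. The fit without M624 and M664 gave 5, where 660 of 14308 were called, and the fit without the 4 satellite-rich libraries gave 4595 genes. Leaving out 1 tumor gave 1 to 4 of the 10, 0 to 12 pathway genes and 5 (without F368) to 1588 (without M9) in all, with 6 without F331, 8 without F325, 335 without F187, 371 without M351 and 375 without M624. The cause was not tested. Upper-quartile normalization moved the median of all genes from 0.14 to 0.24 and the share of calls that were higher from 43.0% to 64.5%.

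Signs changed for Ppib, Mia2, Colgalt1 and Loxl2, none of which passed the threshold. Ppib was -0.0048 with all genes of at least 1 count, -0.29 by weighted limma-voom, -0.32 without M624 and M664, and -0.15 to 0.17 with 1 tumor left out. Mia2 was -0.0795 with all genes of at least 1 count, -0.0593 by library size, -0.28 without the satellite-rich libraries, and -0.12 to 0.17 with 1 tumor left out. By weighted limma-voom Colgalt1 was -0.23 and Loxl2 -0.12, and without M624 and M664 they were -0.33 and -0.51. No paired analysis was possible because the columns carry no replicate numbers.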
